A study of Mus musculus with 26 samples.

Results

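Mettl3 knockdown was compared with control in growth medium (GM), the stage at which C2C12 cells, an immortalised mouse myoblast line, still proliferate. The comparison took in 2 knockdown libraries (Cas9M3-GM) and 2 control libraries (Ctrl-GM), chosen by their library names, which is 4 of the 8 samples in the deposited knockdown table and 4 of 26 in the series. Both groups were sampled on day 0, before serum was withdrawn. By the study's methods the knockdown cells are a stable C2C12 line made by lentivirus and puromycin selection. They carry a Cas9 without nuclease activity fused to the KRAB repressor (dCas9-KRAB), driven by a human ubiquitin C promoter, and guides against the Mettl3 promoter. The submitters' own text for these samples uses the word knockout. What the control cells carry, and whether each line is 1 clone, are not given in the sources used here. The other 4 samples of the table are the same lines on differentiation day 3 (DM3) and enter below only to give a spread and a contrast.

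METTL3 is the catalytic subunit of the nuclear complex that writes N6-methyladenosine (m6A) on RNA, with METTL14 as its partner and WTAP, VIRMA, ZC3H13, RBM15 and CBLL1 as regulatory subunits. Readers of the YTH family bind m6A and act on the splicing, translation and decay of the marked transcripts, and FTO and ALKBH5 can remove the mark. In the myoblast lineage m6A has been studied for its part in the switch from proliferation to differentiation and fusion.

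The study's methods place the guides in the Mettl3 promoter region. The 250 bases upstream of the RefSeq start of Mettl3 are shown as a view of that region (GRCm38.p6, chr14:52305125-52305374, minus strand). The capitals mark each NGG on the printed strand, the motif that the common Cas9 of Streptococcus pyogenes needs beside its target.
Mettl3: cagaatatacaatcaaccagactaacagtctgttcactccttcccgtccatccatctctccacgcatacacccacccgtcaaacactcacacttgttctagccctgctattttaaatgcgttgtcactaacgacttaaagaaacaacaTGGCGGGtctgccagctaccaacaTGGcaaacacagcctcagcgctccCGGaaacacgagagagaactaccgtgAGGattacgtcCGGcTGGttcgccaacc
The window held 8 NGG on this strand and 21 on the other, counting overlaps, and 50.4% of its bases were G or C. Over 32851 RefSeq promoters the same window held a median of 40 NGG, and 100% of them held at least 1. None of the guide sequences listed in the study's supplement occurs in this window on either strand, so the marked NGG are not their sites. Which guides the sequenced cells carry is not given, and where those lie was not analysed here.

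The libraries stood apart by replicate number before they did by line. Counting the reads implied by each value and the gene's exon length, depth on genes was 29190000 reads for control replicate 1 and 29570000 for knockdown replicate 1, against 14230000 and 18900000 for replicate 2. Ribosomal RNA loci took 0.59% and 0.73% of the reads in replicate 1, and 29.56% and 10.66% in replicate 2 of control and knockdown. On the log2 scale the correlation over 13824 genes was 0.966 between the lines within replicate 1 and 0.928 within replicate 2, but 0.862 between the control replicates and 0.915 between the knockdown replicates. The first principal component of all 8 libraries (37.1% of the variance) placed control replicate 2 at 107 and knockdown replicate 2 at 54.4, with the other 6 libraries between -46.1 and -7.2. Each value below is therefore given in every library, and the difference between lines also within replicate 1 and within replicate 2. Nothing in the labels says what the shared number stands for, and its part in any result was not tested.

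Markers of other cell types differed in level from list to list. Of 12 macrophage and leukocyte markers, 7 were listed at 0 in all 4 libraries, Ptprc, Adgre1 and Itgam among them. Levels are in FPKM, the fragments mapped to a gene, scaled to its exon length and by a factor for each library. The summed level of the list was 17.3 to 25.9 FPKM in control and 17.0 to 19.3 in knockdown, nearly all of it Cd14, Cd68 and Lyz2. The 9 endothelial markers summed to at most 0.255 FPKM. The 9 epithelial markers summed to 3.58 and 68.0 FPKM in control and 1.56 and 15.2 in knockdown, which was Krt14 and Krt19, both higher in replicate 2, while Epcam stood at 0. The adipocyte list summed to 124 and 23.3 FPKM in control and 58.0 and 24.8 in knockdown, the neural list to 1.16 and 6.32 against 3.13 and 7.54, and the fibroblast list, many of whose genes C2C12 cells also express, to 2130 and 1710 against 1960 and 1190. Without overlap, 3 of 7 fibroblast markers tested and 1 of 3 macrophage and leukocyte markers were lower in knockdown, beside 13.8% of all genes. In the neural list 1 of 2 was higher, beside 15.6%. At an unadjusted p under 0.05 (limma) 1 fibroblast marker was lower and 1 neural marker higher, beside 3.49% and 5.51% of all genes. The part of these lists in any result was not tested. The 8 myoblast markers were all detected, at 57.7 to 64.4 FPKM in control and 48.6 to 91.5 in knockdown, and no marker of that list separated the groups. Because these are bulk libraries, fewer cells of a kind and less RNA per cell cannot be told apart.

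Mettl3 was far lower in both knockdown libraries. It stood at 4.70 and 5.65 FPKM in the control libraries (replicates 1 and 2) and at 0.331 and 0.118 FPKM in the knockdown libraries, or 758 and 277 reads against 53 and 11. The groups did not overlap, and knockdown held 7.04% of the control value in replicate 1 and 2.09% in replicate 2. The log2 fold change on the log2(FPKM + 0.1) scale, which understates changes of low genes, was -4.10 (standard error 0.40, 95% interval -5.07 to -3.13). Its adjusted p was nevertheless 0.188 (limma, Benjamini-Hochberg over 13824 genes), so Mettl3 itself did not pass the threshold of 0.05, and it did not pass under any of 22 alternatives, where its adjusted p was 0.0519 to 1 and its log2 fold change -4.63 to -2.34. At DM3 the same gene stood at 4.68 and 5.15 FPKM in control and 0.148 and 0.0805 in knockdown, a log2 fold change of -4.57 with an adjusted p of 0.0187. The gene lies at chr14:52294841-52305128 on the minus strand, and part of its exons overlaps those of Tox4 on the other strand. Whether reads were counted by strand is not given in the sources used here.

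No gene passed the adjusted threshold in GM. At an adjusted p of at most 0.05, limma called 0 of 13824 genes (0%) and so 0 DEGs at a 4-fold change, and the smallest adjusted p was 0.188, shared by 16 genes. At an unadjusted p under 0.05 there were 1244 genes (9.00%), 762 of them higher in knockdown (5.51%) and 482 lower (3.49%). With the replicate number as a block the adjusted count was again 0, the smallest adjusted p was 0.135 and the unadjusted count was 1894 (13.7%), which took in 1223 of the 1244. The voom transform of limma on the implied reads and limma with library weights also called 0 genes. Leaving out control replicate 1 was the only change among those tried that made calls, 24 genes of which 15 were DEGs; control replicate 2 was then the lone control and was taken to vary like the other groups. That setting also gave 2246 higher and 2528 lower genes at an unadjusted p under 0.05, against 432 and 268 without knockdown replicate 2, and leaving out any 1 of the DM3 libraries gave 272 to 287 lower. In 2156 genes (15.6%) both knockdown libraries lay above both control libraries, and in 1908 (13.8%) below. An exact permutation test of 2 against 2 libraries cannot go below a two-sided p of 0.333. The replicates are not stated to come from separate cultures, so these p-values measure only the spread between these samples. The fit also pools that spread over both stages. Median differences between replicates were 0.66 (control) and 0.36 (knockdown) in GM but 0.20 and 0.20 at DM3. Standard errors and p-values in GM may therefore be too small. With the GM libraries only, 256 genes were higher and 120 lower at an unadjusted p under 0.05 (limma). The shares of all genes given below rest on the pooled fit with every library and no block. Under other settings the counts over all genes move too. List counts from those settings are therefore not to be read against these shares.

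All genes named from here on were therefore chosen after their values were seen. They include the genes of the fixed lists with an unadjusted p under 0.05, and their adjusted p lay between 0.188 and 0.554 (limma). The words higher and lower state where the libraries lay, not that a gene passed the test.

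Between replicate numbers, the difference between lines was shared only in part. Over all genes tested the median absolute difference between the lines was 0.23 on the log2 scale within replicate 1 and 0.49 within replicate 2. The control replicates differed from each other by a median of 0.66 and the knockdown replicates by 0.36, while at DM3 these figures were 0.20 and 0.20. Across genes, which are not independent replicates, the differences within replicate 1 and within replicate 2 had a Pearson correlation of 0.309 (Spearman 0.318), and 8324 genes (60.2%) had the same sign in both. At a size of at least 1 on the log2 scale in both, 297 genes were higher and 174 lower, and 114 genes had opposite signs.

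**Figure D1:**
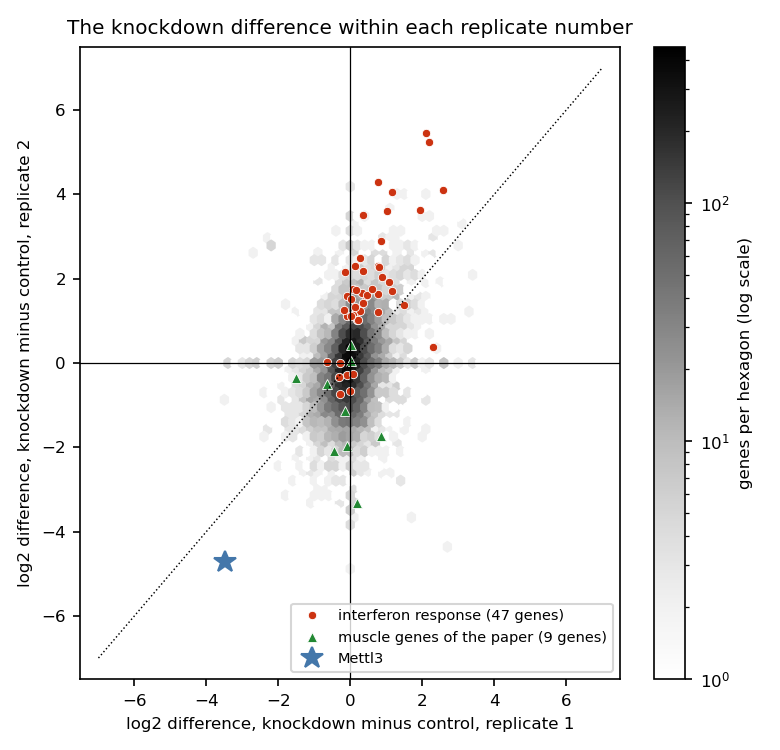
Each hexagon counts genes by their log2 difference (knockdown minus control, log2(FPKM + 0.1)) within replicate 1 on the x axis and within replicate 2 on the y axis, with 13824 genes in all. Mettl3 (star) lies at -3.48 and -4.72, the interferon response genes (red, 47 genes) mostly lie above the dotted line of equal differences, and 9 muscle genes (green triangles) spread along the replicate 2 axis.

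Among the m6A writers, subunits of the writer complex other than Mettl3 were level or slightly higher in knockdown. Wtap, the subunit that holds the complex in nuclear speckles, stood at 8.39 and 9.33 FPKM in control and 12.6 and 14.0 in knockdown, a log2 fold change of 0.58 (standard error 0.16). Virma, the large scaffold subunit, stood at 11.9 and 7.57 FPKM in control and 17.0 and 17.8 in knockdown. Its log2 difference was 0.52 within replicate 1 and 1.22 within replicate 2. Mettl14, the partner of METTL3, was at 2.52 and 2.19 FPKM in control and 2.31 and 2.20 in knockdown, which overlap (log2 fold change -0.06, standard error 0.23). Of 13 writers tested, 2 were higher and 1, Mettl3, lower at an unadjusted p under 0.05, beside 5.51% and 3.49% of all genes, and 6 were higher and 2 lower without overlap, beside 15.6% and 13.8%. The median log2 fold change of the list was 0.05, against -0.01 over all genes. The subunits Wtap, Virma, Zc3h13, Rbm15 and Cbll1 were all higher in knockdown within both numbers. With the replicate block 4 writers in place of 2 were higher at an unadjusted p under 0.05 (limma), and 1066 of all genes in place of 762.

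**Figure D2:**
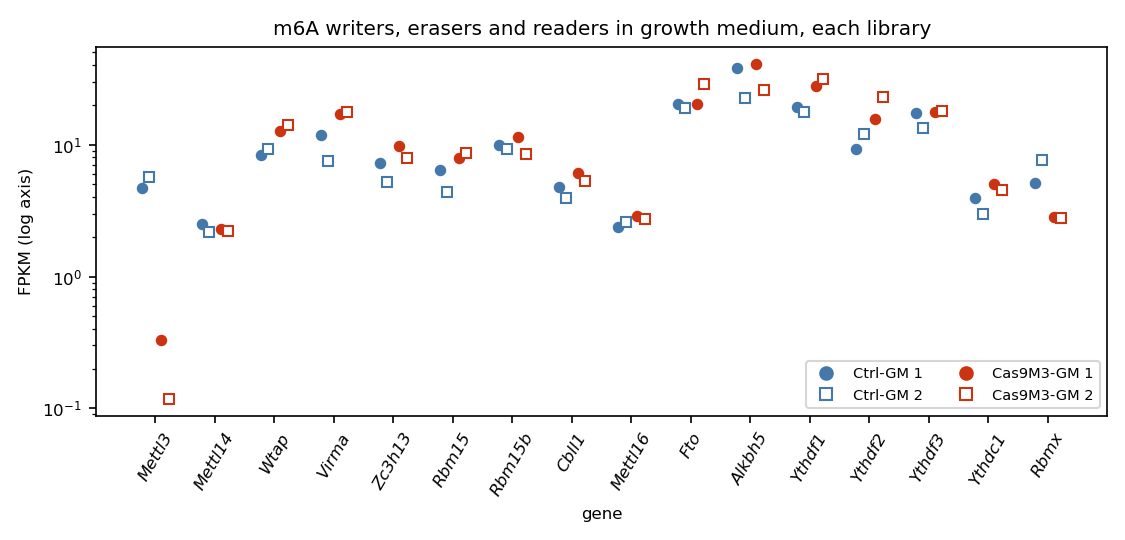
FPKM on a log axis of m6A writers, erasers and readers in the 4 GM libraries; blue is control, red is knockdown, filled circles are replicate 1 and open squares replicate 2. Mettl3 is separated by more than any other gene of the set, at 4.70 and 5.65 against 0.331 and 0.118 FPKM.

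The readers Ythdf1 and Ythdf2, cytoplasmic proteins that bind m6A, were both higher. Ythdf1 stood at 19.4 and 17.8 FPKM in control and 27.6 and 31.6 in knockdown, and Ythdf2 at 9.30 and 12 against 15.7 and 22.9. Rbmx, a nuclear RNA-binding protein whose access to RNA can depend on m6A, was lower, at 5.14 and 7.70 FPKM in control and 2.81 and 2.77 in knockdown. The demethylase Fto differed little within replicate 1, at 20.4 and 18.8 against 20.5 and 28.6 FPKM, and Alkbh5 followed the replicate number, at 38.4 and 22.7 against 41.0 and 25.8. Over the 17 erasers and readers tested, 2 were higher and 1 lower at an unadjusted p under 0.05 (limma), beside 5.51% and 3.49% of all genes. Without overlap 5 were higher and 1 lower, beside 15.6% and 13.8%. The median log2 fold change was 0.22.

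Within 200 kb of Mettl3 the annotation lists 24 other genes, of which 8 passed the filter of at least 0.5 FPKM in at least 2 libraries. Sall2, a zinc finger transcription factor gene next to Mettl3 on the same strand, was lower, at 3.39 and 3.43 FPKM in control and 1.42 and 1.30 in knockdown (log2 fold change -1.27, standard error 0.22). Its values at DM3 were 2.81 and 2.18 in control and 1.37 and 1.37 in knockdown, and its start lies 23.6 kb from that of Mettl3. Chd8, a chromatin remodeller whose start lies 47.3 kb away on the other side, was higher, at 6.24 and 4.52 FPKM against 7.94 and 8.37. Tox4, whose exons overlap those of Mettl3, was at 9.64 and 9.67 FPKM in control and 10.2 and 10.1 in knockdown. These were 2 genes of 8 at an unadjusted p under 0.05, beside 9.00% of all genes, and 1 without any single GM library other than control replicate 1 or either knockdown library of DM3, and the median log2 fold change of the 8 was -0.05, or -0.41 to 0.08 with 1 library left out.

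The interferon response had the median furthest from 0 among the 30 gene lists, the marker lists left aside. It holds antiviral effectors, RNA sensors and the factors that interferon induces, of which 47 were tested. Both knockdown libraries were above both controls in 28 of the 47 genes and below in 2, beside 15.6% and 13.8% of all genes. At an unadjusted p under 0.05, 14 were higher and 0 lower, beside 5.51% and 3.49% of all genes. The median log2 fold change was 1.01, against -0.01 over all genes, and was 0.46 without knockdown replicate 2 and 1.5 without knockdown replicate 1. Part of the list was higher in both numbers, but by unequal amounts. The median difference was 0.32 within replicate 1 and 1.62 within replicate 2, and in 36 genes the highest of the 4 values was in knockdown replicate 2. The summed level of the list was lower in knockdown within replicate 1, at 734 against 669 FPKM in control and knockdown, and higher within replicate 2, at 1190 against 1510 FPKM. Without knockdown replicate 2 the count of 14 became 4, without knockdown replicate 1 it became 29, without control replicate 2 it became 9, and without any 1 of the DM3 libraries it was also 9.

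Ifit1, which binds foreign RNA, stood at 0.225 and 0.9747 FPKM in control and 1.83 and 18.5 in knockdown. Usp18, a protease that removes ISG15, was at 0.0113 and 0 FPKM in control and 0.375 and 4.31 in knockdown. Oas1a, one of the enzymes that make 2-5A, was listed at 0 in both control libraries and at 0.353 and 3.67 FPKM in knockdown. In all of these knockdown replicate 2 lay well above knockdown replicate 1, and both lay above the controls. The sensor gene Ifih1 (MDA5) was nearer in its replicates, at 0.127 and 0.0254 FPKM in control and 0.764 and 1.46 in knockdown. Irf9, the DNA-binding subunit of the interferon-activated factor ISGF3, was at 3.36 and 2.90 against 4.62 and 8.92 FPKM. Trim30a stood at 1.79 and 0.378 against 3.75 and 5.72 FPKM. Lgals3bp, the most abundant of those higher, was at 48.8 and 29.6 FPKM in control and 58.6 and 167 in knockdown. Isg15, a ubiquitin-like modifier, overlapped between the groups, at 1.48 and 10.6 against 4.37 and 27.7 FPKM. Of Oas1a's 50-base words 57.6% also occur in transcripts of other genes, mostly Oas1g, so its reads could be split by the counting.

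**Figure D3:**
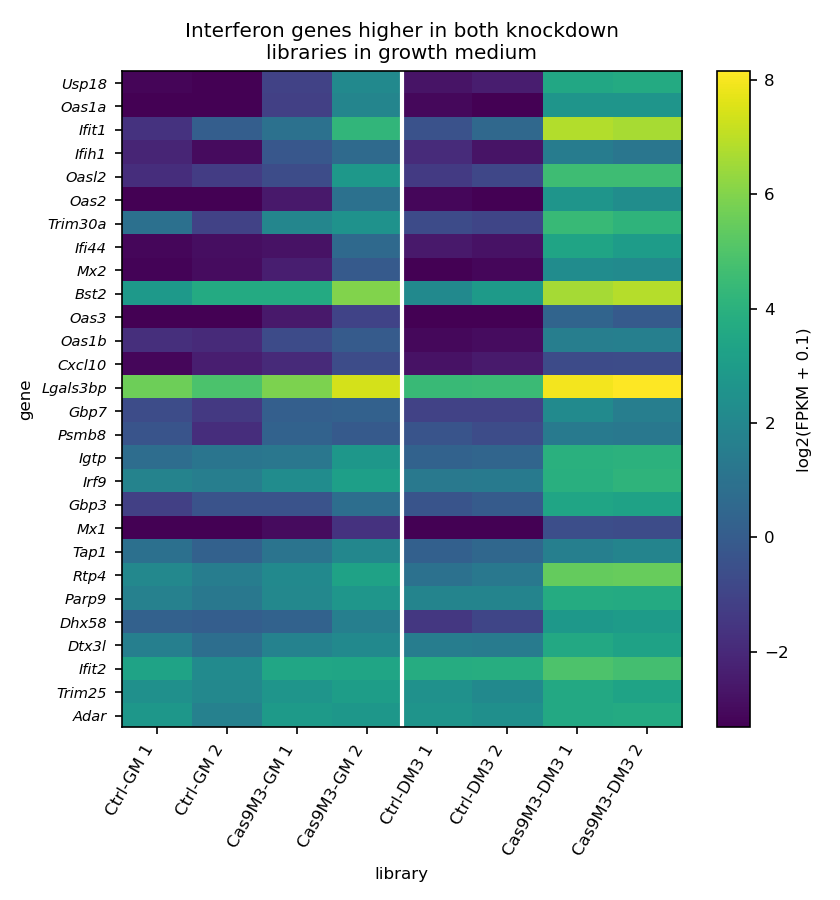
log2(FPKM + 0.1) of the 28 interferon response genes that were higher in both knockdown libraries in GM, in all 8 libraries, ordered by their log2 fold change in GM. Knockdown replicate 2 is brighter than knockdown replicate 1 in most rows, and both knockdown libraries at DM3 are brighter still.

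The promoters of the interferon genes were searched for 2 copies of GAAA with any 2 bases between them, on both strands, the letters of the interferon-stimulated response element, in the 250 bases before the RefSeq start. Of the 47 genes, 34 had a RefSeq promoter, and 16 of these held the motif in any promoter listed for the gene. Of all 32851 promoters, each counted singly, 2.98% held it, so the share per gene and the share per promoter are unlike measures. Of the 10 matched genes at an unadjusted p under 0.05, 4 held it. Those are shown with 15 bases either side where the window allows, with the motif in capitals (overlapping matches are joined, and 2 copies of TTTC are the motif on the other strand). The stretches are from GRCm38.p6, at chr5:120907526-120907560, minus strand, chr7:104465205-104465244, minus strand, chr3:142530268-142530307, plus strand and chr19:34640770-34640828, plus strand.
Oas1a: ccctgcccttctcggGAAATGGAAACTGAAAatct
Trim30a: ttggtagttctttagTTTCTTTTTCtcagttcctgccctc
Gbp7: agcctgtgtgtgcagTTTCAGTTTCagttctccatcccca
Ifit1: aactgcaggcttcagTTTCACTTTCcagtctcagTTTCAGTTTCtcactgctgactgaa
A match describes the letters of the window and no more.

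Some genes of the extracellular matrix and its enzymes were higher in knockdown and a few lower. Of 45 genes of the collagen and matrix list that were tested, 11 were higher and 2 lower at an unadjusted p under 0.05, beside 5.51% and 3.49% of all genes, and 14 and 4 without overlap, beside 15.6% and 13.8%. The median log2 fold change was 0.41 (0.37 within replicate 1 and 0.58 within replicate 2). The count of 11 was 7 without control replicate 2, without knockdown replicate 2 or without knockdown replicate 1 of DM3, and the median was 0.65 with voom. Tnc, the matricellular protein tenascin C, stood at 3.21 and 3.53 FPKM in control and 15.8 and 23.2 in knockdown, a log2 fold change of 2.47. Its groups were further apart than its replicates in either line. Loxl1, a crosslinking oxidase, was at 14.5 and 19.9 against 52.3 and 46.5 FPKM. Timp3, an inhibitor of metalloproteinases, was at 5.54 and 17.0 against 31.4 and 68.5 FPKM, and the aggrecanase gene Adamts5 at 6.39 and 3.06 against 17.7 and 14.7. The gelatinase gene Mmp2 was at 253 and 117 FPKM in control and 395 and 333 in knockdown. Of the genes lower in knockdown, Mgp, an inhibitor of calcification, stood at 458 and 727 against 322 and 138 FPKM, and Col15a1, a basement membrane collagen, at 5.01 and 4.91 against 3.71 and 2.17.

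Several genes of the TGF-beta and BMP pathway, which holds back myogenic differentiation, were higher, both ligand and inhibitors. Bmp4, a ligand, stood at 17.4 and 30.2 FPKM in control and 56.0 and 108 in knockdown (log2 fold change 1.76). Nog, a secreted BMP antagonist, was at 0.204 and 0 against 2.36 and 1.29 FPKM. Bambi, a decoy receptor, was at 0.143 and 0.245 against 1.16 and 1.91 FPKM, and Smad7, an intracellular inhibitor, at 6.37 and 7.06 against 9.87 and 14.4. Of 36 genes tested, 5 were higher and 0 lower at an unadjusted p under 0.05, beside 5.51% and 3.49% of all genes, and 10 and 0 without overlap, beside 15.6% and 13.8%. The median log2 fold change was 0.27, or 0.49 with voom, 0.10 without control replicate 2 and 0.40 without control replicate 1. The count of 5 was 8 with the replicate block, where 1066 of all genes in place of 762 were higher. In the Wnt list, the secreted inhibitor gene Sfrp1 was at 5.68 and 1.59 against 51.6 and 7.62 FPKM and Sfrp4 lower, at 1.93 and 3.35 against 0.417 and 1.08. Of 31 Wnt genes tested 3 were higher and 1 lower at an unadjusted p under 0.05, beside 5.51% and 3.49% of all genes. Without overlap 12 were higher and 3 lower, beside 15.6% and 13.8%.

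Several secreted immune factors outside the interferon list were lower in knockdown. Il33, an alarmin of the interleukin-1 family, stood at 81.4 and 113 FPKM in control and 14.9 and 32.5 in knockdown, a log2 fold change of -2.11. Ccl11, the eosinophil chemokine eotaxin, was at 27.9 and 17.9 against 3.46 and 1.96 FPKM. The cytokine gene Il6 was at 1.57 and 1.45 against 0.496 and 0.897 FPKM, and Il34, a ligand of the CSF1 receptor, at 6.66 and 6.71 against 4.09 and 2.36. Csf1, the other ligand of that receptor, was higher, at 104 and 75.8 against 141 and 136 FPKM. Of 19 genes tested, 1 was higher and 4 were lower at an unadjusted p under 0.05, beside 5.51% and 3.49% of all genes. In all 8 of the 19 had a log2 fold change above 0 and 11 below, and the median of -0.35 was -0.04 with no filter, -0.23 with quantile normalization and -0.11 with voom.

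Genes of DNA replication differed between the lines mainly within replicate 1. Of 43 tested, 6 were higher and 0 lower at an unadjusted p under 0.05, beside 5.51% and 3.49% of all genes, and 12 were higher without overlap, beside 15.6%. The median log2 fold change was 0.28, but it was -0.05 without control replicate 1, 0.03 without knockdown replicate 2, 0.54 without knockdown replicate 1 and 0.73 without control replicate 2. The median difference was 0.51 within replicate 1, where 41 genes were above 0, and 0.13 within replicate 2, where 27 were. Cdc6, which loads the replicative helicase, stood at 1.59 and 1.11 FPKM in control and 2.85 and 3.56 in knockdown, and Chaf1b, a subunit of chromatin assembly factor 1, at 2.93 and 4.14 against 7.26 and 8.31. The ribonucleotide reductase gene Rrm2 was at 121 and 127 against 182 and 156 FPKM. The count of 6 was 25 without control replicate 2, 3 without control replicate 1 or knockdown replicate 2, and 18 without both replicate 2 libraries. The 44 mitosis genes went in different directions in the numbers, with medians of 0.43 within replicate 1 and -0.47 within replicate 2, and all 44 were higher in replicate 2 than in replicate 1 of both lines. Only Mki67, a marker of cycling cells, was at an unadjusted p under 0.05 among them, at 16.6 and 24.6 against 30.7 and 37.9 FPKM. Among the regulators of the cycle, Ccnd1 (cyclin D1) was at 31.8 and 22.5 against 52.2 and 67.3 FPKM, the inhibitor Cdkn1b (p27) at 27.3 and 27.0 against 19.2 and 18.9, and the imprinted inhibitor Cdkn1c (p57) at 0.139 and 0.102 against 1.20 and 1.07.

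Muscle genes followed the replicate number more than the line. Myog, the regulator that starts terminal differentiation, stood at 11.1 and 2.70 FPKM in control and 12.7 and 0.182 in knockdown, so its difference was 0.20 within replicate 1 and -3.31 within replicate 2. Mymk, which encodes the fusogen Myomaker, was at 6.50 and 2.26 against 11.8 and 0.613 FPKM, with differences of 0.85 and -1.73. Myh3, the embryonic myosin heavy chain, was at 1.45 and 0.0513 against 0.445 and 0.0180 FPKM. All 9 tested muscle genes that the study names in myoblasts overlapped between the groups, at adjusted p values of 0.704 to 1.00. Of 48 sarcomere and contraction genes tested, 0 had an unadjusted p under 0.05. Their median difference was 0.07 within replicate 1 and -0.50 within replicate 2, and only 6 of them in control and 4 in knockdown were higher in replicate 2 than in replicate 1. The myogenic regulators (15 tested) likewise gave 0 at an unadjusted p under 0.05, with a median of 0.13. Of 32 myoblast fusion genes, 3 were higher, Cdh2, Kirrel and Ptk2, beside 5.51% of all genes, with N-cadherin (Cdh2) at 9.81 and 6.42 against 14.1 and 18.3 FPKM.

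**Figure D4:**
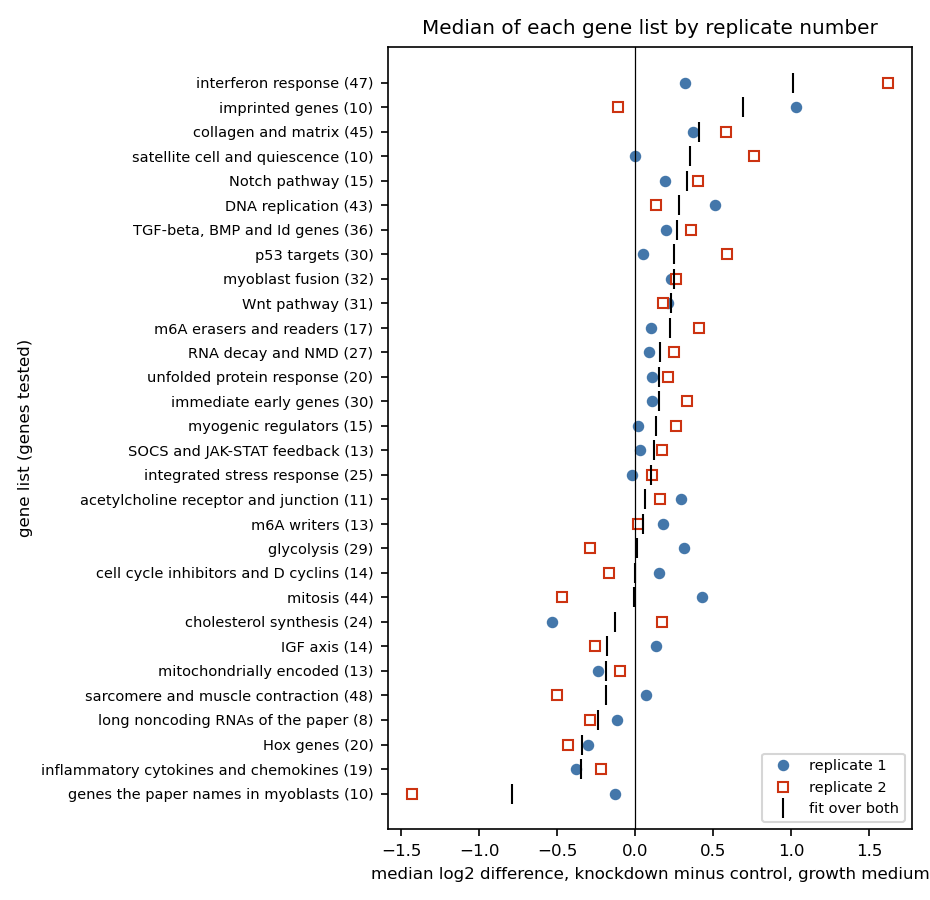
Median log2 difference (knockdown minus control) of each gene list in GM, within replicate 1 (filled circle), within replicate 2 (open square) and from the fit over both (bar), with the number of genes tested in brackets. The interferon response has the highest fitted median, at 1.01, and the medians of mitosis, sarcomere, glycolysis, cholesterol synthesis and imprinted genes are among those of opposite sign in the 2 numbers.

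In the insulin-like growth factor axis, which supports myoblast growth, 1 gene was higher and 2 lower of 14 tested at an unadjusted p under 0.05. The shares of all genes were 5.51% and 3.49%. Without overlap 3 were higher and 3 lower, beside 15.6% and 13.8% of all genes, and 7 had a log2 fold change above 0 and 7 below. Both genes lower at that p encode binding proteins. Igfbp2 stood at 15.99 and 38.5 FPKM in control and 4.92 and 1.33 in knockdown, and Igfbp5 at 25.9 and 15.6 against 9.52 and 3.06. The receptor gene Igf2r was higher, at 5.89 and 4.82 against 11.6 and 15.6 FPKM. The imprinted RNA H19 was at 249 and 49.7 against 1051 and 42.8 FPKM, so its groups overlapped. In the homeobox clusters, which carry positional identity, Hoxa5 was at 4.34 and 5.68 against 2.23 and 2.61 FPKM and Hoxc13 at 8.17 and 5.68 against 16.2 and 13.3. Of 20 Hox genes tested, 1 was higher and 3 were lower at an unadjusted p under 0.05 (limma), beside 5.51% and 3.49% of all genes. Without overlap 2 were higher and 8 lower, beside 15.6% and 13.8%. The p53 targets went both ways, with Aen higher, at 4.78 and 1.499 against 8.12 and 7.74 FPKM, and Gadd45a lower, at 11.4 and 26.9 against 5.53 and 4.63. Of 30 tested, 3 were higher and 2 lower at an unadjusted p under 0.05 (limma), beside 5.51% and 3.49% of all genes. Without overlap 8 were higher and 2 lower, beside 15.6% and 13.8%. The other lists had few genes at an unadjusted p under 0.05, and their counts are to be read against 5.51% of all genes higher and 3.49% lower. Immediate early genes had 2 higher of 30, the integrated stress response 2 higher and 1 lower of 25, and the unfolded protein response 2 higher of 20. Glycolysis had 3 higher of 29, cholesterol synthesis 1 lower of 24, RNA decay 1 lower of 27, and SOCS and JAK-STAT feedback 1 higher of 13. The Notch pathway had 2 higher of 15, imprinted genes 3 higher and 1 lower of 10, satellite cell genes 1 higher of 10, and the acetylcholine receptor and junction list 1 higher of 11. The mitochondrially encoded genes (13 tested) and the long noncoding RNAs named by the study (8 tested) had 0 genes at an unadjusted p under 0.05.

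Outside the lists, the largest differences at an unadjusted p under 0.05 with no overlap were as follows. Gm18348 stood at 0.0384 and 0.253 FPKM in control (1 and 2 reads) and 3.44 and 5.91 in knockdown, where it held 89 reads in each library. Smoc1, a secreted calcium-binding protein, was at 0.360 and 0.119 against 5.65 and 3.89 FPKM, and Rhox5, an X-linked homeobox gene, at 0.334 and 1.10 against 10.0 and 7.08. Prickle1, of planar cell polarity, was at 0.290 and 0.0238 against 3.27 and 1.53 FPKM, and Sirpa, the receptor of CD47, at 0.487 and 0.169 against 7.94 and 2.11. Among genes lower in knockdown, Gm8300 had the smallest p of all genes, at 79.5 and 62.3 against 6.60 and 3.17 FPKM. Tspan8, a tetraspanin, was at 0.961 and 2.56 against 0.0745 and 0.224 FPKM, and Ch25h, which makes 25-hydroxycholesterol, at 0.635 and 5.45 against 0.0914 and 0.353. The remaining ones, the higher Gm23134, AL645535.1 and Gm16584 and the lower Gm24497, Snord65, Mir1934, Gm22847, Mir1191b and Gm13486, rest on at most 10 reads in any GM library where reads could be derived. Among genes at a mean of at least 50 FPKM, the largest differences upward besides Bmp4, Lgals3bp and Mmp2 were Ly6e, at 63.8 and 96.7 against 136 and 291 FPKM, Itgb5, at 68.2 and 65.8 against 118 and 121, and Plxnb2. Itgb5, an integrin subunit, had the smallest spread of these, with differences of 0.79 and 0.88 in the 2 numbers. Among those downward besides Il33 and Mgp were Selenom, at 82.4 and 111 against 45.3 and 40.4 FPKM, Cbr2 and Cpe.

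At DM3, where replicates were closer, limma called 274 genes at an adjusted p of at most 0.05 (1.98%), 179 higher and 95 lower. That count was 0 with any 1 DM3 library left out, 878 or 883 without control replicate 1 or 2 of GM, 505 with the replicate block and 192 to 3325 over the other settings. Of these 274, 122 (44.5%) also had an unadjusted p under 0.05 in GM, beside 9.00% of all genes, and 120 of the 122 differed in the same direction. They made up 9.81% of the 1244 genes in GM. The comparisons share no library but take their spread from the same fit. With any 1 DM3 library left out the count of 120 was 0, without control replicate 1 or 2 of GM it was 354 or 246, and with the replicate block 200. Of the 179 genes called higher at DM3, 132 were higher in GM without overlap and 8 lower, while of the 95 called lower, 28 were lower in GM without overlap and 13 higher, beside 15.6% of all genes higher and 13.8% lower. The knockdown effect at DM3 minus that in GM was past an adjusted p of 0.05 for 0 genes (0%) and at an unadjusted p under 0.05 for 1198 (8.67%). The adjusted count moved with both GM replicate 2 libraries left out. Each GM group was then 1 library and the spread came from the DM3 groups alone, so that setting cannot test the difference.

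The difference between the lines also varied by chromosome, a view chosen after the values were seen. Over 7398 genes at a mean of at least 5 FPKM, the median log2 difference was 0.01 within replicate 1 and -0.06 within replicate 2 in GM, and -0.06 and -0.04 at DM3. On chromosome 16 (233 genes) it was 0.18 and 0.26, and 0.25 in both numbers at DM3. On that chromosome 37.3% of genes were above 0 in all 4 pairs, beside 13.8% of all genes. Chromosome 6 (350 genes), with the lowest fitted median in GM (-0.17), was at -0.15 and -0.18 in GM and -0.13 and -0.12 at DM3. Others were lower in some pairs. At DM3 chromosome 3 was at -0.17 and -0.18 and chromosome 13 at -0.17 and -0.19. Chromosome 17 was at -0.25 within replicate 2 of GM. Chromosome 4 was next to chromosome 16, with a fitted median of 0.12 in GM.

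**Figure D5:**
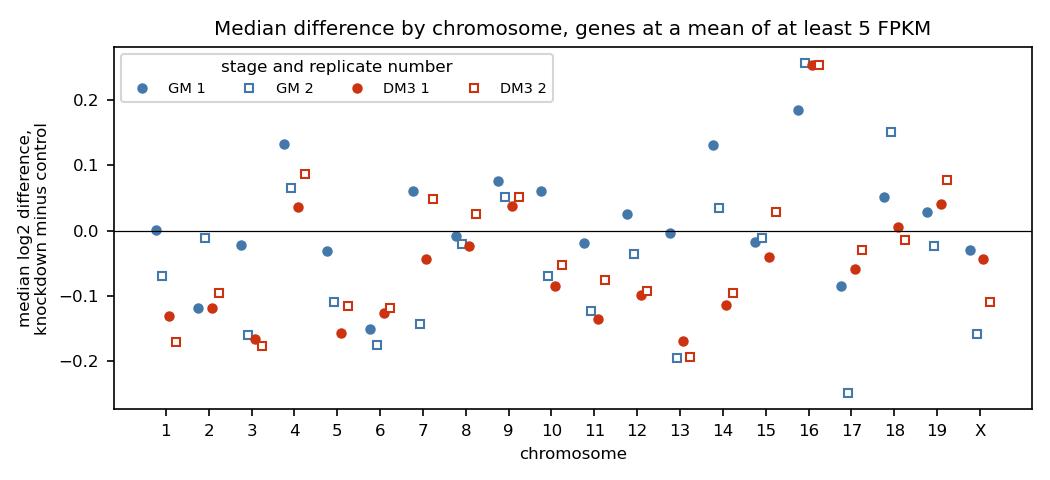
Median log2 difference (knockdown minus control) of genes at a mean of at least 5 FPKM on each chromosome, within replicate 1 (filled circles) and replicate 2 (open squares) in GM (blue) and at DM3 (red). The 4 medians of chromosome 16 lie between 0.184 and 0.256; each is the highest of its pair of lines.

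Gm8300 belongs to a stretch of chromosome 12 that was picked, and its bounds set, because neighbouring genes were lower together (GRCm38, chr12:87238868-88461724, from the first to the last base of the genes tested there). Of 18 genes tested in it, 14 were lower without overlap (13.8% of all genes), and 12 were lower (3.49%) and 0 higher at an unadjusted p under 0.05, with a median log2 fold change of -1.30; these describe the choice and support nothing. Gm2016 stood at 13.6 and 11.1 FPKM in control and 2.12 and 1.76 in knockdown, and Gm5662 at 22.5 and 24.7 against 4.51 and 3.08. Of Gm8300's 50-base words 26.6% also occur in transcripts of other genes, so reads within that family are uncertain. Of the named genes between and beside them, Vipas39 did not separate, at 11.7 and 8.74 against 11.3 and 9.14 FPKM, and Ism2 and Slirp overlapped too. Adck1, a mitochondrial kinase, was at 15.8 and 18.4 against 9.18 and 9.66 FPKM, and Alkbh1, a nucleic acid demethylase, at 5.04 and 6.30 against 3.528 and 3.496. At DM3, 4 of the 18 were called lower at an adjusted p of at most 0.05 (limma), beside 95 of all 13824 genes. The stretch was picked in the same lines, so this count is no separate support for it, and it shares the limits of the DM3 calls given above.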

How the data were processed

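The samples are 2 control and 2 Mettl3 knockdown C2C12 libraries in GM, grouped by their labels, with the 4 DM3 libraries of the same table in the fit to supply the spread. The authors deposited FPKM values per gene, one column per library, from reads aligned to mm10; the strand setting of the counting is not given in the sources used here. No column of the table was left unassigned (0), and the table of the other 18 samples was not used here. Exon lengths from GENCODE M21 gave implied reads, of which 98.52% or more of the low values (up to 20 reads) were whole within 0.02 read.

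The test took the 13824 of 55487 genes that reached 0.5 FPKM in 2 or more of the 8 libraries and used limma 3.58.1 (R 4.3.3) on log2(FPKM + 0.1), with a mean-variance trend and Benjamini-Hochberg adjustment. The study's methods name a count test. The deposited values are FPKM, so a test on the log scale was used, with voom on the implied reads as an alternative. The threshold was an adjusted p of 0.05, with a 4-fold change for a DEG. Same-numbered libraries deviated together in every pair of groups (correlations 0.278 to 0.68), so the numbers were taken to pair the libraries, and the fit with the replicate number as a block is given where it moves a count by over 1.5 times.

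The rule for named genes took Mettl3, the muscle genes the study names, the m6A writers, and the 12 largest changes per direction (6 above 50 FPKM), list members and genes within 200 kb of Mettl3 among those that passed. As 0 genes passed, the same rule was applied with an unadjusted p under 0.05. Some genes that the rule or the lists take in are not reported here. The members, 30 gene lists and 7 marker lists were chosen with earlier results of these data known. Alternatives changed the pseudocount, filter, scaling, samples and block, or left out each library. The fitting steps were tested on simulated data.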

Additional observations from a re-analysis of the deposited data

Results flagged for a closer look

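For 15 of 135 named genes both knockdown libraries lay on one side of both controls in GM and on the opposite side at DM3. Such a reversal was seen in 825 of the 13824 genes tested, and the test of the difference between the stages (limma) passed an adjusted p of 0.05 for none of them. Most named genes were chosen by their values in GM, so the count among them cannot be set against that over all genes. The values are the knockdown effect at DM3 minus that in GM, on the log2 scale. Among genes of DNA replication and proliferation the difference was -2.31 for Cdc6, -1.59 for Chaf1b, -1.33 for Dtl, -1.48 for Mcm3, -2.14 for Pole, -1.73 for Rrm2 and -2.01 for Mki67, all higher in GM and lower at DM3. It was -4.21 for the BMP antagonist gene Nog, -3.997 for the imprinted gene Mest, -2.58 for the amino acid transporter gene Slc7a5, -1.13 for Aldh18a1, which acts in proline synthesis, and -0.40 for the methyltransferase gene Mettl16. In the other direction, lower in GM and higher at DM3, it was 4.16 for the chemokine gene Ccl11, 1.13 for the long noncoding RNA Hotair and 0.84 for Hoxa9.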

How the results depend on the processing

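Mettl3 kept its direction under all 22 alternatives and passed the adjusted threshold under none. The count of 0 genes at an adjusted p of at most 0.05 was 0 to 24 with 1 library left out, and the count of 0 DEGs 0 to 15; at an unadjusted p under 0.05 they were 1244 and 156. Genes higher at an unadjusted p (762) were 1214 with no filter, 256 with the GM libraries only, 284 with library weights and 1339 with the replicate block and voom, and 432 to 2246 with 1 library left out. Genes lower (482) were 767, 120, 111 and 267 in those settings, 828 with the replicate block, 826 with the block and a pseudocount of 1, 153 with voom, and 268 to 2528 with 1 library left out. For the GM libraries only, library weights, and the replicate block with voom, the list counts were 5, 5 and 23 for interferon, 6, 6 and 18 for matrix, 3, 3 and 10 for TGF-beta and 2, 2 and 17 for DNA replication. TGF-beta was 8 with the replicate block, DNA replication 15 with voom and 18 without both GM replicate 2 libraries, and cytokines 2 with voom. With 1 library left out these lists ranged over 4 to 29, 7 to 13, 4 to 11, 3 to 25 and, for cytokines, 4 to 6. Genes beside Mettl3 were 1 with the GM libraries only (with or without the block), library weights, voom or both GM replicate 2 libraries left out, and 1 to 3 with 1 library left out. Genes shared in direction with DM3 (120) were 200 with the replicate block, 250 with library weights, 277 with block and voom, 228 with block and a pseudocount of 1, 579 without both GM replicate 2 libraries, and 0 to 354 with 1 library left out. The difference between the stages gave 1 gene with block and a pseudocount of 1, 174 without both GM replicate 2 libraries and 1198 at an unadjusted p, and 0 with any 1 library left out. Genes at 1 or more in both numbers (471) were 97 with a pseudocount of 1. Genes called at DM3 (274) were 453 with a pseudocount of 1, 505 with the replicate block, 643 with block and voom, 735 with block and a pseudocount of 1, 3325 with library weights, 2699 without both GM replicate 2 libraries, and 0 to 883 with 1 library left out. With the block the counts at an unadjusted p that moved by over 1.5 times in the smaller lists were 4 writers higher (2), 5 fusion genes higher (3), 3 satellite cell genes higher (1), 4 immediate early genes higher (2), 2 IGF genes higher (1), 2 receptor and junction genes higher (1), 2 integrated stress genes lower (1), 5 Hox genes lower (3) and 5 cholesterol genes lower (1), and 1 or 2 genes appeared in, or left, lists that had 0 or 1. In GM the block put no gene past the adjusted threshold; at DM3 it put Mymk, Tnni1, Chrng, Myh3, Prickle1, Sirpa and Tspan8 past it among the named genes. Of 2963 alternative values of 135 named genes, 33 in 14 genes reversed. These were log2 fold changes of 0.20 for Myog, 0.85 for Mymk and 0.01 for Trmt112 without both GM replicate 2 libraries, 0.14 for Mymk with block and voom, -0.20 for Mymx and -0.15 for Myh1 with quantile normalization, and 0.14 for Mettl14 with voom, block or not, and 0.06 and 0.05 for Zcchc4. With 1 library left out the range was -4.31 to 1.20 for Myog, -2.47 to 1.59 for Mymk, -1.25 to 1.30 for Mymx, -1.80 to 0.52 for Tnnc2, -2.71 to 0.64 for Tnni1, -1.75 to 0.61 for Tnni2, -2.60 to 0.07 for Chrng, -1.87 to 2.31 for Myh1, -2.61 to 0.74 for Myh3, -0.15 to 0.04 for Mettl14, -0.18 to 0.24 for Rbm15b, -1.14 to 0.12 for Trmt112, -0.41 to 0.17 for Zcchc4 and -0.07 to 0.17 for Pcif1. The cause was not tested. Library weights, voom, the block with voom or with a pseudocount of 1, and leaving out both GM replicate 2 libraries were chosen after seeing the data. In the last of these each GM group is 1 library, so the spread comes from the DM3 groups alone and its counts cannot test the GM effect. The depth of 14230000 to 29570000 reads limits genes at a few reads, and 2 libraries a group limit every test.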
